A study of Mus musculus with 6 samples.

Results

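The genes of the mitochondrial respiratory chain are described here in 6 RNA-seq libraries of sorted mouse cells, 1 library per condition. They were chosen by name: every protein-coding gene of the GENCODE M21 annotation whose symbol begins with Nduf, Uqcr, Cox4 to Cox8, Atp5, mt-Nd, mt-Co, mt-Cytb or mt-Atp, or is Sdha, Sdhb, Sdhc or Sdhd. The naming rule itself uses no measured value. The rule gave 107 members of 54495 genes with a known exon length, of which 94 are encoded in the nucleus and 13 in mitochondrial DNA, and both groups are treated apart. The study asked how iron overload acts on blood formation in acute myeloid leukemia (AML). All animals were C57BL/6 mice. WT mice carried no leukemia and received PBS, and WT/FE mice received iron dextran by intraperitoneal injection. MA9 mice had been transplanted with cells transduced by a retrovirus with the MLL-AF9 fusion gene and GFP and received PBS, and MA9/FE mice carried the same leukemia and received iron dextran. Macrophages were sorted from all 4 groups of mice, and leukemia cells of the bone marrow (BM) from the MA9 and MA9/FE mice. The labels give the spleen as the origin of these macrophages, whereas the study's methods give the BM, and this conflict was not settled.

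The respiratory chain passes electrons from NADH and succinate to oxygen and stores the energy as a proton gradient over the inner mitochondrial membrane. Complex I (NADH dehydrogenase, Nduf genes), complex II (succinate dehydrogenase, Sdh genes), complex III (cytochrome bc1, Uqcr genes) and complex IV (cytochrome c oxidase, Cox genes) carry the electrons, and complex V (ATP synthase, Atp5 genes) uses the gradient to make ATP. Complexes I, II and III hold iron-sulfur clusters, and complexes II, III and IV hold heme, so the chain is a main user of cellular iron. Most subunits come from nuclear genes, and a small core is transcribed from mitochondrial DNA.

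Every value is a deposited FPKM (fragments scaled to exon length and to library size), from which reads were recovered, with totals of 16085346 to 19518358 per library. The reads summed over genes lay within -0.69% to 1.64% of these totals in 5 libraries and 8.75% above the total in MA9/FE macrophages, so shares of reads and FPKM of that library depend on which total is used. TMM scaling, which does not use the totals, moved its comparisons with other libraries by factors of 0.980 to 1.03. Differences are given as log2(FPKM + 1) after TMM scaling (trimmed mean of M values) of each pair of libraries, and a gene was tested where 1 or both libraries of the pair held 10 reads or more. Series of 4 values for the macrophages run from WT over WT/FE and MA9 to MA9/FE, and pairs for leukemia cells from MA9 to MA9/FE. On this scale the change of a gene with a low value comes out too small. Because each condition has 1 library, a difference between 2 libraries has no replicate check, and intervals cover counting error only. The sorted macrophage libraries also held much RNA of other cell types. Cd79a, a part of the B cell receptor, was listed at 415 to 802 FPKM in the 4 macrophage libraries and at 0.832 and 0.9996 FPKM in the leukemia cells, whereas the macrophage marker Adgre1 was listed at 32.2 to 54.5 FPKM in the macrophages. The 9 B cell markers took 0.360% to 0.619% of the reads of the macrophage libraries, and the 14 macrophage markers 0.133% to 0.291%. All 14 macrophage markers were at 1 FPKM or more in each macrophage library, and 11 of 14 also in each leukemia library. T cell, NK cell and platelet markers took at most 0.0288%, 0.0199% and 0.0054% of reads in any library. In bulk RNA, fewer cells of a type and less RNA per cell cannot be told apart.

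Of the 94 nuclear members, 88 reached 10 reads in at least 1 library: 36 subunits of complex I, 8 of its assembly factors (Ndufaf genes), 4 of complex II, 8 of complex III, 15 of complex IV and 17 of complex V. The remaining 6 are Cox4i2, Cox7b2, Cox8b, Cox8c, Ndufa4l2 and a second gene model named Atp5o. These 6 are isoforms or relatives of other members or, for the last, a duplicate model, and each was listed at 0.622 FPKM or less in all libraries. Ndufa4, first assigned to complex I, is counted here with complex IV.

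The promoters of members that carry the results below are shown because the chain's nuclear genes are known to share binding sites of NRF-1, of the ETS factor NRF-2 (GABP) and of YY1. The sequences are from RefSeq (GRCm38.p6) and run from 250 bases before to 50 bases after the annotated start. Capitals mark matches, on either strand, to the core letters GCGCATGC (NRF-1), CCGGAAG (ETS) and AAGATGGC (YY1). Uqcr11 (chr10:80406772-80407071, minus strand) and Ndufs6 (chr13:73328433-73328732, minus strand) belong to complexes III and I, and their differences between iron-loaded mice were among the largest of the chain. Atp5k (chr5:108434350-108434649, minus strand) and Sdhd (chr9:50603800-50604099, minus strand) were higher in leukemia cells. Cox6b1 (chr7:30626065-30626364, minus strand) and Cox6b2 (chr7:4753045-4753344, minus strand) encode the general and the testis isoform of the same subunit of complex IV.
Uqcr11: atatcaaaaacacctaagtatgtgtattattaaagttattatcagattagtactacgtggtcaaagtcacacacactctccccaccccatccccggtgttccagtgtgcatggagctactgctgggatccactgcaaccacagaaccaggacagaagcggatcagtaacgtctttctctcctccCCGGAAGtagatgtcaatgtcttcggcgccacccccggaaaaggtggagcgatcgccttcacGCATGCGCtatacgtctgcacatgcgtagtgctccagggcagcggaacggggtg
Ndufs6: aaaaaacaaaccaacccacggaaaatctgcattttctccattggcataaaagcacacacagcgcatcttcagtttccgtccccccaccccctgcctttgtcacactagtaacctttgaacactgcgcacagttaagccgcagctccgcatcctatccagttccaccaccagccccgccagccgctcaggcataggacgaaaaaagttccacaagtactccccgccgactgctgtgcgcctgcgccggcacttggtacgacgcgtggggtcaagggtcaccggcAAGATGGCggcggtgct
Atp5k: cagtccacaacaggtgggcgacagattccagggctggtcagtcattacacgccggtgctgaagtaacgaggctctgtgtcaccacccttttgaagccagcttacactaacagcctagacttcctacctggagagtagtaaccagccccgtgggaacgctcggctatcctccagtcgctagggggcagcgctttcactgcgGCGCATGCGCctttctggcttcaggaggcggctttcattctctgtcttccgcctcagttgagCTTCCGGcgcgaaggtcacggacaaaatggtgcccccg
Sdhd: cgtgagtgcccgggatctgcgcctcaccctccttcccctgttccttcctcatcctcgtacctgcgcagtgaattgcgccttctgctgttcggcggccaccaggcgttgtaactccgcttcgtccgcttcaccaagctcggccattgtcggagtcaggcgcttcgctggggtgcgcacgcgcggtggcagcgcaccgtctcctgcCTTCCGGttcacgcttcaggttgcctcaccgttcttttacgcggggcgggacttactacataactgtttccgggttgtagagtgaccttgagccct
Cox6b1: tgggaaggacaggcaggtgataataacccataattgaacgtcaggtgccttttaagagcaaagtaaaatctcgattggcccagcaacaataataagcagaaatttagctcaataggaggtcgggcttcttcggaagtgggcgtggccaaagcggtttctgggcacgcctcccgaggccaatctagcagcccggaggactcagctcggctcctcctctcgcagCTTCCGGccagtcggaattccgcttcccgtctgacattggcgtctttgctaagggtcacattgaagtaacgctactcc
Cox6b2: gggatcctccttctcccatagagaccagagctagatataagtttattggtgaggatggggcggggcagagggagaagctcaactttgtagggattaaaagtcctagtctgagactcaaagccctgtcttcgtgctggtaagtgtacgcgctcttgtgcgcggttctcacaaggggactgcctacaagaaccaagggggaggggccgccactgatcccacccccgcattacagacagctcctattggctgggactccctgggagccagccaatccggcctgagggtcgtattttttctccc
Uqcr11 and Atp5k held both the NRF-1 and the ETS letters, Sdhd and Cox6b1 the ETS letters, Ndufs6 the YY1 letters and Cox6b2 none of the 3. Promoters were found in the table for 74 nuclear members. Of these, 12 (16.2%) held the NRF-1 core, 18 (24.3%) the ETS core and 10 (13.5%) the YY1 core, against 3.01%, 9.89% and 3.16% of 26951 other genes of the table. At least 1 of the 3 cores was present in 33 members (44.6%) and in 14.8% of the other genes. A match describes these letters in this window and is not a measured binding site.

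Nuclear members took 0.618%, 0.543%, 0.712% and 0.846% of the reads of the 4 macrophage libraries and 0.909% and 0.915% of those of the leukemia cells. Their 95% Wilson intervals reach at most 0.00447 percentage points to either side. As shares of the summed gene reads they were 0.608%, 0.547%, 0.705%, 0.778%, 0.916% and 0.918%, in the same order. The share was thus lowest in the macrophages of iron-loaded mice without leukemia and highest in the leukemia cells, with the 2 leukemia libraries close to each other. The median FPKM over the 94 members kept this order, with 27.2, 23.3, 31.3 and 37.8 FPKM in the macrophages and 38.7 and 39.5 FPKM in the leukemia cells.

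At the level of single members, WT/FE was the lowest of the 6 libraries for 74 of 88 nuclear members (18.9% of all 18104 genes with 10 reads), and among the 4 macrophage libraries MA9/FE was the highest for 75 (27.4% of all genes). The full order of WT/FE below WT, WT below MA9 and MA9 below MA9/FE was present in 57 members, against 7.89% of all genes. Both leukemia libraries lay above all 4 macrophage libraries for 43 members and below them for 4, namely Atp5s, Cox6a2, Cox7a2l and Ndufaf1, against 33.1% and 34.7% of all genes. With each library scaled to its summed gene reads, both leukemia libraries lay above all macrophage libraries for 62 members (35.2% of all genes), and MA9/FE was the highest macrophage library for 71 (19.4%). Without the MA9/FE macrophage library, whose comparisons had the steepest length trends (below), WT/FE was the lowest of 5 libraries for 75 members (21.8% of all genes), and the leukemia libraries lay above the other 3 macrophage libraries for 77 members (36.7% of all genes).

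**Figure D1:**
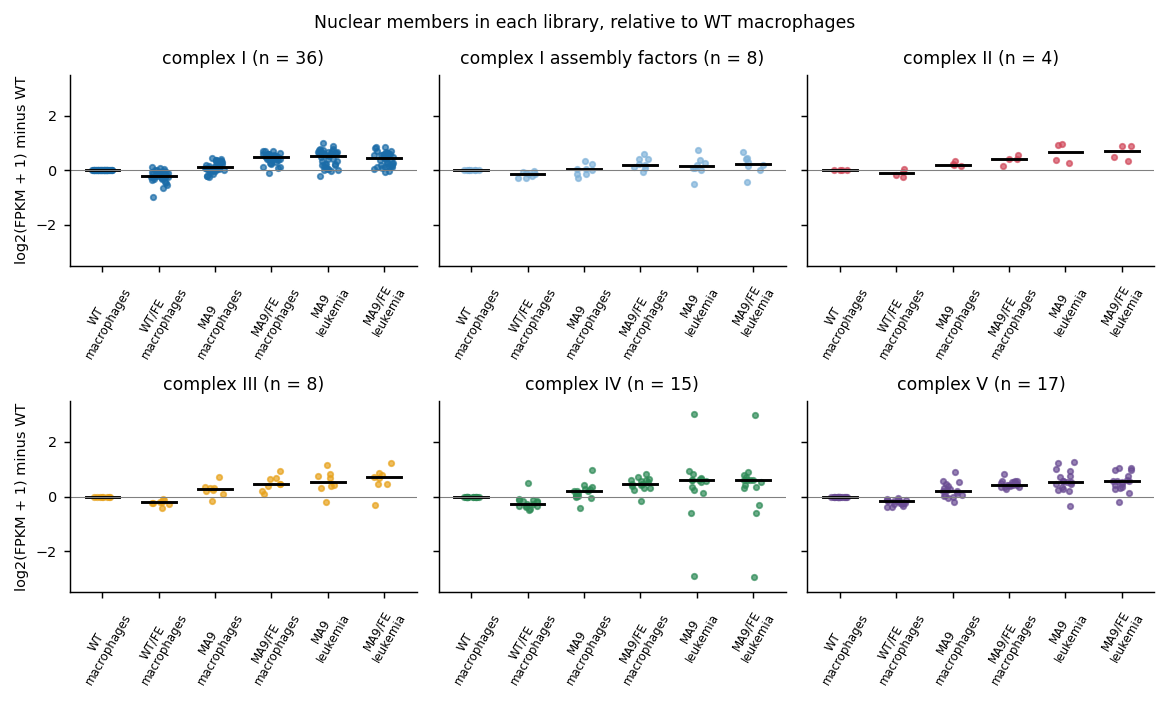
Each point is 1 nuclear member with at least 10 reads, in panels by complex. The vertical axis is its log2(FPKM + 1) in a library minus that in WT macrophages, and bars are medians. WT/FE macrophages lie below 0 and MA9/FE macrophages and leukemia cells above 0 in most members of every complex, and Cox6b2 and Cox6a2 are the highest and lowest points of complex IV in leukemia cells.

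Iron went with lower levels in WT macrophages. Of 88 nuclear members, 83 were lower and 5 higher in WT/FE macrophages compared with WT, and the median log2 difference was -0.20 (all tested genes -0.01). The counting interval of the fold lay below 1 for 59 members and above 1 for 1, against 19.1% and 15.8% of all tested genes. Of 1333 other genes of like length and level (defined below) 1037 were lower, and the interval lay below 1 for 48.3% of them. Complex IV had the lowest median (-0.27, 14 of 15 lower), followed by complex III (-0.22, 8 of 8 lower) and complex I (-0.20, 33 of 36 lower). Complex V had 17 of 17 members lower (median -0.17), complex II 3 of 4 (-0.12) and the assembly factors 8 of 8 (-0.15). On the log2(FPKM + 1) scale no nuclear member passed a fold of 2, and 0.691% of all 16487 tested genes passed it upward and 0.534% downward. Ndufa12, whose FPKM ratio is given below, came nearest (-0.99) and passed with a pseudocount of 0.1.

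Iron went with higher levels in MA9 macrophages. Between MA9/FE and MA9, 80 of 88 nuclear members were higher, with a median log2 difference of 0.32 (all tested genes 0.01). The counting interval lay above 1 for 68 members and below 1 for 1, against 29.7% and 26.2% of all tested genes. Of other genes of like length and level, 84.7% were higher (51.9% of all tested genes), and the interval lay above 1 for 71.5%. The median was 0.35 in complex I (35 of 36 higher), 0.35 in complex IV (13 of 15) and 0.26 in complex III (8 of 8). It was 0.27 in complex V (14 of 17 higher), 0.22 in complex II (4 of 4) and 0.23 in the assembly factors (6 of 8). Again no nuclear member passed a fold of 2, against 1.17% of tested genes upward and 1.23% downward.

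These 2 comparisons share no library. A lower level with iron in WT and a higher one in MA9 macrophages was seen in 75 of 88 nuclear members, and the opposite pattern in 0. Among all 15560 genes tested in both, 31.4% had the first pattern and 25.5% the opposite one. Marker levels also differed in these pairs. Macrophage markers took 0.134% of reads in WT and 0.257% in WT/FE, and 0.133% in MA9 and 0.291% in MA9/FE, so they were higher with iron in both pairs. B cell markers were close in WT and WT/FE (0.619% and 0.600%) and differed between MA9 and MA9/FE (0.360% and 0.556%), and cell cycle genes were at 0.218% and 0.135% in the same pair. Plasma cell markers took 0.207%, 0.198%, 0.425% and 0.526% of the reads, and erythroid markers 0.0111%, 0.0204%, 0.0396% and 0.0512%. The part of these cells in the members' differences was not tested.

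**Figure D2:**
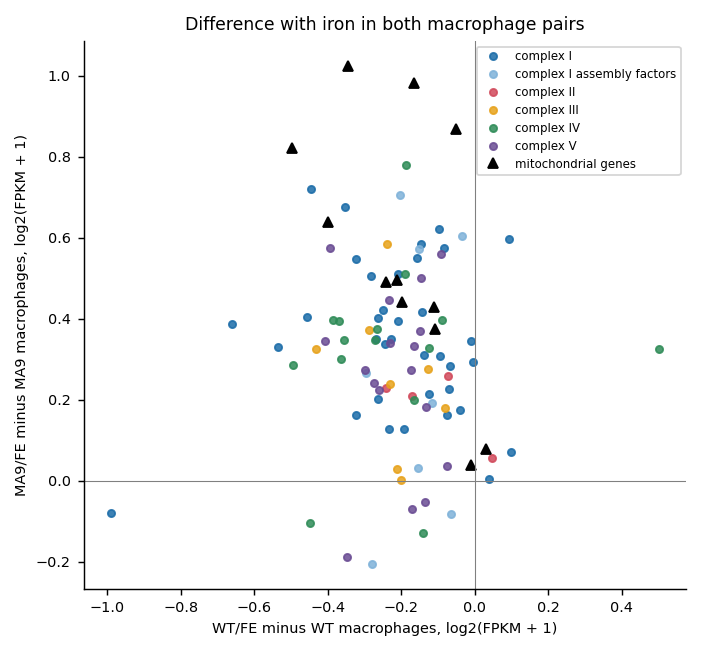
Each point is 1 member with its log2(FPKM + 1) difference with iron in WT macrophages on the horizontal axis and in MA9 macrophages on the vertical axis. Most nuclear members (circles, coloured by complex) and mitochondrial genes (triangles) lie in the upper left, lower with iron in WT and higher with iron in MA9 macrophages. Ndufa12 is the point farthest left and Cox6a2 the point farthest right.

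Single members of complex I gave the largest differences in WT macrophages. Ndufa12, an accessory subunit, was listed at 8.03 FPKM in WT and 3.57 FPKM in WT/FE macrophages, 0.442 times the WT level (95% counting interval 0.345 to 0.563). Ndufb3, an accessory subunit of the membrane arm, was at 41.7 and 26.1 FPKM (0.624 times, interval 0.545 to 0.714), and Ndufs4, a subunit that joins late in assembly, at 11.7 and 7.80 FPKM (log2 -0.54). The highest difference was that of Cox6a2, the heart and muscle isoform of a complex IV subunit, at 11.2 and 16.4 FPKM (1.45 times, interval 1.16 to 1.81). The next highest differences, Ndufb2 (0.10) and Ndufs3 (0.09), were small.

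In MA9 macrophages the highest difference with iron was that of Cox7a2l, counted here with complex IV. Its level was 145 FPKM in MA9 and 244 FPKM in MA9/FE macrophages, 1.72 times higher (interval 1.65 to 1.79). Ndufa13 of complex I (38.7 and 62.9 FPKM, log2 0.72) and the assembly factor Ndufaf1 (8.31 and 13.8 FPKM, log2 0.71) followed. Ndufaf2, an assembly factor (2.84 and 2.28 FPKM, log2 -0.21), Atp5k, which encodes a small membrane subunit of ATP synthase (38.1 and 32.5 FPKM, log2 -0.19), and Cox6b2, the testis isoform of a complex IV subunit (10.03 and 9.03 FPKM, log2 -0.10) had the lowest differences. The counting intervals of Atp5k (0.753 to 1.02) and Cox6b2 (0.743 to 1.15) held 1.

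The core subunits did not all follow the members' directions. Ndufs1, the largest iron-sulfur subunit of complex I, was nearly level in the macrophages at 7.83, 8.09, 8.87 and 8.67 FPKM. Ndufv1, which binds NADH, was at 25.2, 24.1, 31.7 and 36.3 FPKM in the same order, and Ndufs7, which holds the last cluster before ubiquinone, at 34.1, 26.6, 30.8 and 48.7 FPKM. Ndufs7 and Ndufs8 (58.2, 48.5, 61.1 and 79.1 FPKM) were thus lowest in WT/FE and highest in MA9/FE, and Ndufs1 was not. Sdha, the flavin subunit of complex II, was at 52.5, 54.5, 58.1 and 59.0 FPKM, and Sdhb, its iron-sulfur subunit, at 32.2, 28.6, 37.6 and 42.5 FPKM. Uqcrfs1, the Rieske iron-sulfur protein of complex III, was at 63.9, 54.5, 76.1 and 87.8 FPKM. Cox4i1, the main isoform of the largest nuclear subunit of complex IV, was at 139, 122, 151 and 211 FPKM. Atp5b, the catalytic beta subunit of complex V, was at 132, 117, 192 and 178 FPKM, so its MA9/FE level lay below that of MA9.

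Another 7 core subunits, given in the same order, were each lowest in WT/FE of the 4 macrophage libraries. In complex I, Ndufv2 was at 28.9, 24.3, 29.3 and 38.6 FPKM. In complex III the core protein Uqcrc1 was at 32.6, 30.9, 40.3 and 44.6 FPKM and the core protein Uqcrc2 at 36.3, 31.3, 42.1 and 41.9 FPKM. In complex IV Cox5a was at 22.4, 21.1, 27.4 and 35.4 FPKM and Cox5b at 46.6, 36.2, 58.9 and 70.9 FPKM. In complex V the alpha subunit Atp5a1 was at 145, 138, 198 and 199 FPKM and the gamma subunit Atp5c1 at 75.3, 64.3, 76.8 and 95.01 FPKM.

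Exon length went with these differences over all genes. Nuclear members are short, with a median exon length of 1696.5 bases over the 88 with 10 reads, against 3499.5 bases over all 18104 genes with 10 reads. Over all tested genes, Spearman's rho of the log2 difference with exon length was 0.176 between WT/FE and WT, -0.287 between MA9/FE and MA9, and -0.281 between MA9/FE and WT/FE macrophages. It is a description across genes, which are not replicates. Short genes as a whole were lower in WT/FE and higher in MA9/FE macrophages. The fitted trend at 1000 bases was -0.10, 0.18 and 0.24 in these 3 comparisons. Removing it moved the share of upward calls among all 2-fold calls from 56.4% to 67.3%, from 48.6% to 27.9% and from 64.7% to 44.1%.

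After the trend was removed, the nuclear median was -0.13 between WT/FE and WT (10 of 88 higher), 0.17 between MA9/FE and MA9 (74 of 88 higher) and 0.49 between MA9/FE and WT/FE macrophages (85 of 88 higher). The directions were kept, and the medians were smaller than before. A closer reference was taken from other genes within the middle range of the members' exon lengths and with a mean of at least 10 FPKM. Between MA9/FE and MA9 macrophages, 1416 such genes had a median of 0.30, and 39 nuclear members held to the same limits had 0.37. Between WT/FE and WT, 1333 such genes had a median of -0.12 and 35 members -0.23. Genes of like length and level thus moved in the same direction as the members, and the members stood 0.08 above them in the MA9 pair and 0.11 below them in the WT pair. No test of these gaps was possible with 1 library per condition.

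**Figure D3:**
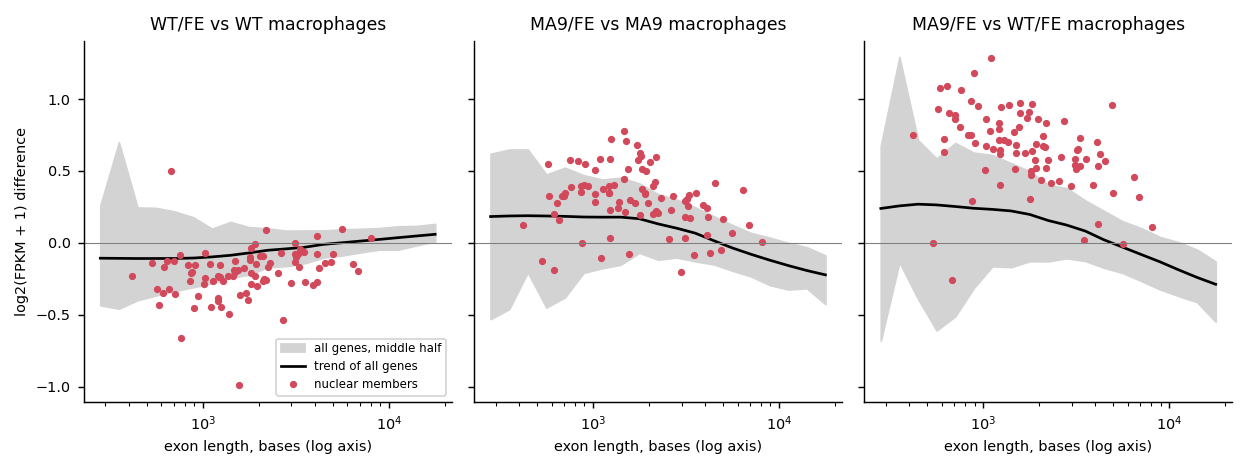
Points are nuclear members, with exon length in bases on a log axis and the log2(FPKM + 1) difference on the vertical axis, in 3 comparisons of macrophages. The grey band is the middle range (first to last quartile) of all tested genes in bins of length and the line their trend. Members lie mostly below the line in WT/FE against WT and above it in both comparisons with MA9/FE, where the line itself is above 0 for short genes.

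In leukemia cells the levels with and without iron were close. Of 87 nuclear members tested, 44 were higher and 43 lower in MA9/FE, with a median of 0.0041, and the counting interval held 1 for 70 members (69.9% of all tested genes). It lay above 1 for 8 members and below 1 for 9, against 15.6% and 14.5% of all tested genes. No member passed a fold of 2, against 0.38% of 15278 tested genes upward and 0.432% downward. Ndufa12 was the exception in size, at 16.8 FPKM without and 8.78 FPKM with iron (0.522 times, interval 0.446 to 0.610). The highest difference was that of Uqcrb, a small subunit of complex III, from 45.9 to 61.3 FPKM (log2 0.41), followed by Ndufa5 (0.23) and Ndufaf6 (0.21). After Ndufa12, the lowest differences were those of Atp5k (-0.25) and Atp5g1 (-0.22). Sdha was at 68.9 and 73.6 FPKM, Cox4i1 at 203 and 203 FPKM and Atp5b at 265 and 275 FPKM.

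Ndufa12 was lower with iron in all 3 pairs, although the MA9 macrophage pair (8.13 and 7.45 FPKM, 0.939 times, interval 0.768 to 1.15) did not differ beyond counting error. Of its stretches of 64 bases, 16.0% also occur in the processed pseudogene Gm15920 on chromosome 5. Gm15920 was listed at 22.6, 21.6, 45.4 and 46.7 FPKM in the macrophages and 34.5 and 44.5 FPKM in leukemia cells. The pseudogene was thus above the gene in all 6 libraries, and how reads were shared between them is uncertain.

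Leukemia went with higher levels in macrophages. Between MA9 and WT, 72 of 88 nuclear members were higher, with a median log2 difference of 0.18 (all tested genes -0.0031). Counting intervals lay above 1 for 48 members and below 1 for 7, against 29.1% and 26.0% of all tested genes. Complex III (median 0.29, 7 of 8 higher), complex V (0.22, 14 of 17), complex II (0.22, 4 of 4) and complex IV (0.21, 12 of 15) stood above complex I (0.12, 30 of 36) and the assembly factors (0.04, 5 of 8). Genes of like length and level were near 0 here (median 0.01 of 1367 genes), and 37 members held to the same limits had a median of 0.13. The highest differences were those of Cox6b2 (log2 0.97), Atp5g1 (0.91) and Uqcr11 (0.72), and the lowest differences those of Cox7a2l (-0.42), Ndufaf1 (-0.26) and Ndufa3 (-0.25). No member passed a fold of 2, against 3.81% of tested genes upward and 0.877% downward.

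With iron in both groups the difference was larger. Between MA9/FE and WT/FE macrophages 86 of 88 nuclear members were higher, with a median of 0.67 (all tested genes 0.01) and a counting interval above 1 for 84 members (32.8% of all tested genes, and 80.3% of other genes of like length and level) and below 1 for 0 (28.1% of all tested genes). Cox6b2 (3.17 and 9.03 FPKM in WT/FE and MA9/FE), Ndufs6 (19.2 and 44.1 FPKM), Uqcr11 (37.9 and 80.8 FPKM), Uqcr10 (49.5 and 104 FPKM) and Ndufb3 (26.1 and 54.9 FPKM) passed a fold of 2. These are 5 of 88 members, all higher, against 2.97% of tested genes upward and 1.62% downward. Ndufs6 is a zinc-binding subunit of complex I, and Uqcr10 and Uqcr11 are small subunits of complex III. The lowest differences were those of Cox6a2 (-0.26), Ndufb2 (-0.0060) and Ndufaf7 (0.02). With the length trend removed, 1 of the 5, Cox6b2, still passed (log2 1.05). Genes of like length and level had a median of 0.41 (1398 genes), against 0.69 for 39 members held to the same limits.

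Cell cycle genes, which mark dividing cells, took 0.0650%, 0.0622%, 0.218% and 0.135% of the reads of the macrophages and 0.365% and 0.373% of those of leukemia cells. Neutrophil markers took 0.00209%, 0.00176%, 0.168% and 0.0835% in the macrophages. Both lists were thus higher in MA9 and MA9/FE macrophages than in those of mice without leukemia, as the members were, but MA9/FE had less of both than MA9, where the members were higher. Their part in the members' levels was not tested.

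A fit over all 6 libraries was made with limma on 16899 genes, with the kind of cells and iron as terms. Its residual is the difference in the iron response between kinds of cells, not a spread between animals, so its p-values are limited to that. The iron term averages over the kinds of cells. Differences of opposite sign in WT and MA9 macrophages, seen in 75 of 88 nuclear members, offset each other in it and add to the residual. The iron term therefore cannot detect that pattern, and a lack of iron calls says nothing about it. For iron, no nuclear or mitochondrial member was called (Benjamini-Hochberg adjusted p at or under 0.05), and no gene was called in all (0% higher, 0% lower). At an unadjusted p under 0.05, 0 nuclear members were higher and 2 lower, against 1.89% and 1.63% of all genes, and 56 of 88 estimates were above 0 (47.7% of all genes).

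For MA9 against WT macrophages, averaged over iron, limma called 2 of 88 nuclear members, both higher, against 1.15% of all genes higher and 0.0592% lower. Atp5g1, 1 of 3 genes for the c subunit that forms the rotor ring of ATP synthase, was at 6.59, 5.94, 13.1 and 12.3 FPKM in the macrophages. Both MA9 libraries thus lay above both WT libraries, with a log2 difference of 0.94 ± 0.11 (SE, limma, Benjamini-Hochberg adjusted p = 0.0436). Cox6b2 was at 4.67, 3.17, 10.03 and 9.03 FPKM in the same order, again without overlap, and its log2 difference was 1.13 ± 0.14 (SE, limma, adjusted p = 0.0455). Both genes were picked by their calls in these same libraries, so the lack of overlap adds nothing to the calls. Each lost its call in 2 of 8 other settings, with adjusted p up to 0.159 for Atp5g1 and 0.186 for Cox6b2. At an unadjusted p under 0.05, 41 nuclear members were higher and 0 lower, against 13.7% and 7.04% of all genes, and 87 of 88 estimates were above 0, against 50.9% of all genes.

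Atp5g1 shares 6.60% of its stretches of 64 bases with the processed pseudogene Gm10039 on chromosome 11. Gm10039 was listed at 39.0, 35.3, 63.5 and 52.5 FPKM in the macrophages and at 63.0 and 64.7 FPKM in leukemia cells, so it too was higher in the MA9 libraries, and part of the reads could belong to either gene. The other c subunit genes were at 67.4, 59.9, 77.3 and 91.4 FPKM (Atp5g2) and 52.1, 43.6, 67.8 and 77.4 FPKM (Atp5g3) in the 4 macrophage libraries. Atp5g1 made up 5.22%, 5.43%, 8.30% and 6.80% of the 3 genes' FPKM in the macrophages.

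Leukemia cells of the BM were compared with macrophages of the same condition, and the labels do not say whether both came from the same animals. By the labels the macrophages came from the spleen, so the kind of cells and the organ cannot be told apart here. Without iron, 78 of 88 nuclear members were higher in leukemia cells (median 0.30, all tested genes -0.01), with a counting interval above 1 for 65 and below 1 for 3, against 35.9% and 37.3% of all tested genes. With iron, 47 were higher and 41 lower (median 0.01, all tested genes -0.03), and 29 members had a counting interval above 1 and 22 below 1, against 37.1% and 40.3% of all tested genes. The leukemia libraries themselves hardly differed, and the macrophage libraries did (above). Genes of like length and level showed much of the same, with medians of 0.22 and -0.08, against 0.24 and -0.06 for the members held to the same limits. Past a fold of 2 were Cox6b2, higher, and Cox6a2, lower, in both comparisons. Of all tested genes 7.41% were past it upward and 12.7% downward without iron, and 9.68% and 13.3% with iron. Without iron, Ndufa12 (0.93) and the assembly factor Ndufaf3 (0.85) were next highest and Ndufaf1 (-0.27) and Cox7a2l (-0.21) next lowest. With iron these were Uqcrb (0.69) and Atp5k (0.60), and Cox7a2l (-0.95) and Ndufaf1 (-0.85).

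In the fit over 6 libraries limma called 5 nuclear members higher and 1 lower in leukemia cells than in MA9 macrophages, against 20.7% of all genes higher and 23.2% lower. At an unadjusted p under 0.05, 12 nuclear members were higher and 1 lower, against 25.3% and 27.5% of all genes, and 68 of 88 estimates were above 0 (48.5% of all genes). Atp5k was at 38.1 and 32.5 FPKM in the macrophages of MA9 and MA9/FE mice against 60.7 and 50.7 FPKM in leukemia cells of the same conditions (log2 0.63 ± 0.11, SE, limma, adjusted p = 0.00716). Sdhd, which anchors complex II in the membrane and holds its heme with Sdhc, was at 63.0 and 72.2 FPKM in macrophages and 104 and 103 FPKM in leukemia cells (log2 0.59, adjusted p = 0.0270, limma). Sdhc was at 16.5 and 19.4 FPKM in macrophages and 25.8 and 24.8 FPKM in leukemia cells (log2 0.46, adjusted p = 0.0344, limma). Ndufv3, an accessory subunit of the NADH-binding module of complex I, was at 13.7, 16.8, 21.5 and 21.2 FPKM in the same order (log2 0.46, adjusted p = 0.0443, limma). In all 4 genes both leukemia libraries lay above both MA9 macrophage libraries. The genes were picked by their calls in these same libraries, so this order adds nothing to the calls. Ndufv3 lost its call in 3 of 8 other settings, and Sdhc and Sdhd in 1 each. Cox6b2 and Cox6a2 are given with their isoforms next.

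Complex IV has paired isoforms for several subunits, and 2 pairs differed between the leukemia cell and the macrophage libraries. Cox6b2 had 4.67, 3.17, 10.03 and 9.03 FPKM in the macrophages and 44.5 and 43.3 FPKM in leukemia cells. It was 4.34 times higher in leukemia cells than in macrophages without iron (interval 3.70 to 5.10) and 4.70 times with iron (3.96 to 5.59), and limma gave a log2 difference of 2.08 ± 0.14 (SE, adjusted p = 0.000386). Its general partner Cox6b1 was at 98.2, 76.8, 114, 141, 151 and 149 FPKM in the same 6 libraries, 1.30 times higher without iron and 1.04 times with iron (interval 0.971 to 1.11). Cox6b2 thus made up 3.96% to 8.12% of the FPKM of the pair in macrophages and 22.7% and 22.5% in leukemia cells.

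Cox6a2 went the other way. It had 11.2, 16.4, 10.7 and 13.3 FPKM in the macrophages and 0.648 and 0.577 FPKM in leukemia cells, where only 8 and 7 reads were counted. The leukemia level was 0.0591 times that of macrophages without iron (interval 0.0250 to 0.120) and 0.0424 times with iron (0.0167 to 0.0895), with a limma log2 difference of -3.02 ± 0.18 (SE, adjusted p = 0.000265). Cox6a1, the general isoform, was at 189.9, 175, 257, 314, 291 and 292 FPKM in the 6 libraries, so both kinds of cells had mostly Cox6a1. Cox6a2 made up 4.01% to 8.56% of the pair in macrophages and 0.222% and 0.197% in leukemia cells. B cell markers likewise took 0.360% to 0.619% of reads in the macrophage libraries and 0.00479% and 0.00459% in leukemia cells, and which cells of the sorted libraries gave the Cox6a2 reads was not tested.

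The other isoform pairs were carried by their general member in all libraries. Cox4i2, the lung isoform, made up at most 0.370% of its pair with Cox4i1, and Ndufa4l2 at most 0.402% of its pair with Ndufa4. Cox7a1, the muscle isoform, was at 1.68 to 2.57 FPKM beside Cox7a2 at 32.9 to 83.2 FPKM. Cox8b was listed at 0.622 FPKM or less and Cox8c and Cox7b2 at 0 beside Cox8a at 201 to 401 FPKM and Cox7b at 37.0 to 75.3 FPKM. Cox7a2 was at 42.6, 32.9, 49.3 and 63.5 FPKM in the 4 macrophage libraries and 83.2 and 79.7 FPKM in leukemia cells, while its relative Cox7a2l was at 196, 173, 145 and 244 FPKM in the macrophages and 128 and 128 FPKM in leukemia cells. Ndufaf1 was also below all macrophage libraries (8.31 to 13.8 FPKM) in the leukemia cells (6.90 and 7.39 FPKM).

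**Figure D4:**
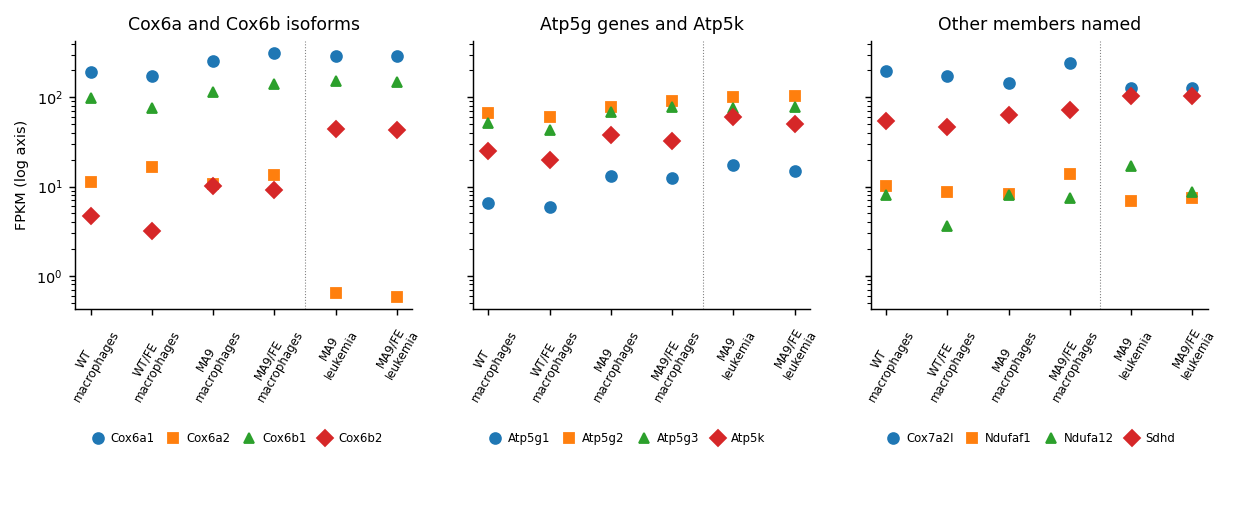
FPKM on a log axis in each of the 6 libraries, 1 symbol per library and gene, with a dotted line between macrophages and leukemia cells. Cox6b2 is 44.5 and 43.3 FPKM in leukemia cells against 10.03 FPKM or less in macrophages, and Cox6a2 is under 1 FPKM in leukemia cells against 10.7 FPKM or more in macrophages, whereas Cox6a1 and Cox6b1 stay at 76.8 FPKM or more in all 6.

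The 13 mitochondrial genes took 1.23%, 1.14%, 1.21% and 1.56% of reads in the macrophages and 1.18% and 1.20% in leukemia cells. Of the summed gene reads of MA9/FE macrophages they took 1.43%. MA9/FE macrophages were thus highest, and the other 5 libraries lay between 1.14% and 1.23%. Mt-Co1, the catalytic subunit of complex IV, gave 46.9% to 49.8% of these reads, with 3789, 3529.8, 3734 and 4719 FPKM in the macrophages and 3777 and 3869.5 FPKM in leukemia cells. Mt-Cytb, the cytochrome b of complex III, was at 1707, 1588, 1689.6 and 2219.97 FPKM in the macrophages and 1705 and 1515 FPKM in leukemia cells. Mt-Nd1, a membrane subunit of complex I, was at 1569.7, 1373, 1539.6 and 2040.2 FPKM, and 1394 and 1534 FPKM. In all 3 genes WT/FE was the lowest and MA9/FE the highest of the macrophages.

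Mt-Nd2, mt-Nd4 and mt-Nd6, further subunits of complex I, were lower in level than mt-Nd1 and were also highest in MA9/FE macrophages. Mt-Nd2 was at 778, 660.3, 733 and 1004 FPKM in the macrophages and 595 and 605 FPKM in leukemia cells, and mt-Nd4 at 592, 514, 539.8 and 743 FPKM, and 543 and 532 FPKM. Mt-Nd6, the only member read from the opposite strand of mitochondrial DNA, was at 626, 561, 499 and 962 FPKM, and 420.1 and 518 FPKM. Mt-Nd5 varied least, at 564, 578, 608 and 626 FPKM in the macrophages and 594 and 638 FPKM in leukemia cells. Mt-Atp8, which overlaps mt-Atp6, was listed at 0.502 to 2.59 FPKM and did not reach 10 reads in either library of any pair, so 12 mitochondrial genes were tested.

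The remaining 5, mt-Co2, mt-Co3, mt-Atp6, mt-Nd3 and mt-Nd4l, were listed at 2.64 to 33.9 FPKM, far under mt-Co1, although all are encoded on the same molecule. Mt-Co1 was 139 to 208 times mt-Co2. These 5 share 97.9% to 99.9% of their stretches of 64 bases with pseudogenes on chromosome 1, nuclear copies of mitochondrial DNA. Of the others, mt-Cytb, mt-Nd1 and mt-Nd6 share 0%, mt-Nd5 3.35%, mt-Nd2 6.77%, mt-Co1 44.7% and mt-Nd4 61.8%. Mt-Atp8 also shares 0%, although its level was the lowest of all (above), so a low level did not always go with shared sequence. Mt-Co2 and its copy Gm28661 (chr1:24614885-24615565, minus strand, GRCm38) are identical over all 681 aligned bases. The copies were themselves listed at 1.48 to 20.5 FPKM. The levels of these 5 genes are therefore uncertain, since reads that fit both places may be split or dropped in counting.

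Mt-Nd3 is the case where this bears on a call. Its first 60 bases and those of its copy Gm28438 (chr1:24612775-24613119, minus strand, GRCm38, from the GENCODE M21 transcripts) are shown, with the base that differs in capitals. It is the substitution T3C (the base of mt-Nd3 first, its position from the first base of the gene, then the base of the copy), and it is the only difference in 345 aligned bases.
mt-Nd3: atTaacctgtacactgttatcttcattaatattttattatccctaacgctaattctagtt
Gm28438: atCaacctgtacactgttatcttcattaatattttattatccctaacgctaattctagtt
Limma called mt-Nd3, a membrane subunit of complex I, lower in leukemia cells than in MA9 macrophages (log2 -1.50 ± 0.26, SE, adjusted p = 0.00761), and it was the only mitochondrial member called. It was at 23.9, 23.1, 18.6 and 33.9 FPKM in the macrophages and 8.70 and 8.05 FPKM in leukemia cells. Gm28438 went the other way, with 2.52, 2.42, 4.09 and 6.67 FPKM in the macrophages and 10.5 and 14.0 FPKM in leukemia cells. Reads of gene and copy together came to 9.17, 8.87, 7.88 and 14.1 RPM (reads scaled to the library's total) in the macrophages and 6.66 and 7.62 RPM in leukemia cells. The copy took 9.40% to 17.9% of these reads in macrophages and 54.5% and 63.2% in leukemia cells, so the split of reads between gene and copy differed between the kinds of cells. The sum of both was 7.88 and 6.66 RPM in MA9 macrophages and leukemia cells, a smaller difference than that of mt-Nd3 alone, and 14.1 and 7.62 RPM in the MA9/FE pair, where it was lower as well.

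**Figure D5:**
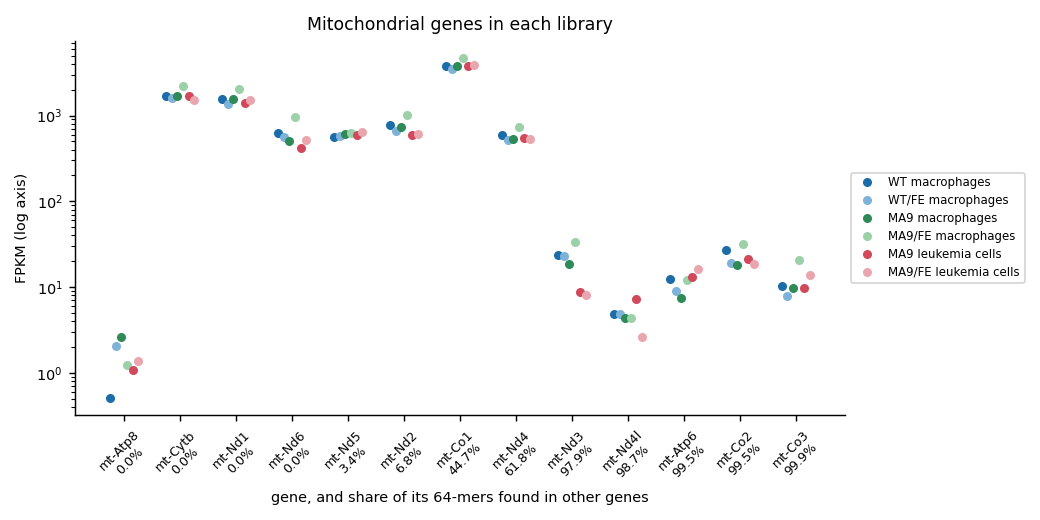
FPKM of the 13 mitochondrial genes on a log axis, 1 point per library, ordered by the share of each gene's stretches of 64 bases that occur in other genes (printed under the name). The 5 genes with shares of 97.9% or more lie at 33.9 FPKM or less, and mt-Atp8, which overlaps mt-Atp6, lies lowest. Among the other 7, MA9/FE macrophages are highest in all but mt-Nd5.

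With iron, the tested mitochondrial genes moved as the nuclear members did. In WT macrophages 11 of 12 were lower (median log2 -0.18), in MA9 macrophages 12 of 12 were higher (median 0.49), and in leukemia cells 7 were higher and 5 lower (median 0.03). Past a fold of 2 were mt-Co3, higher in MA9/FE than in MA9 macrophages (log2 1.03) and WT/FE macrophages (1.30), mt-Nd4l, lower with iron in leukemia cells (-1.18, from 39 to 14 reads), and mt-Nd3, lower in leukemia cells than in macrophages (-1.04 without and -1.98 with iron). All 3 are among the genes with near-identical copies. In 11 of 12, the level with iron was lower in WT and higher in MA9 macrophages. Between MA9 and WT macrophages 11 of 12 mitochondrial genes were lower (median -0.09) while 72 of 88 nuclear members were higher. With the length trend removed, 5 of the 12 were higher and 7 lower (median -0.02). With iron in both groups, 11 of 12 were higher in MA9/FE than in WT/FE macrophages (median 0.55), and the limma estimate averaged over iron was above 0 for 10 of 12. Between MA9/FE leukemia cells and macrophages 11 of 12 were lower (median -0.57). The summed FPKM of mitochondrial genes was 2.63, 2.79, 2.24 and 2.40 times that of nuclear members in the macrophages and 1.70 and 1.74 times in leukemia cells. The ratio was thus lowest in the leukemia cells, although the 5 genes with copies enter it at uncertain levels.

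Gene lists around the chain were described in the same way. The 77 tested mitochondrial ribosomal proteins, which translate the mitochondrial genes, followed the nuclear members in every comparison, with medians of -0.17 between WT/FE and WT, 0.24 between MA9/FE and MA9, 0.12 between MA9 and WT and 0.54 between MA9/FE and WT/FE macrophages. Cytosolic ribosomal proteins had larger differences with iron, -0.26 in WT (76 of 79 lower) and 0.63 in MA9 macrophages (76 of 77 higher), and were lower in MA9 than in WT (-0.15). The import genes (Tomm and Timm) had -0.19 and 0.13 with iron in WT and MA9 macrophages, and the 14 enzymes of the TCA cycle, which feed the chain, -0.14 and 0.045. The 18 genes of iron-sulfur cluster assembly had -0.09 and 0.09, the 37 tested assembly factors and carriers -0.10 and 0.17, and the 25 genes of mitochondrial DNA expression -0.08 and 0.16.

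Regulators of mitochondrial biogenesis did not share the members' directions, with medians of -0.01 and -0.09 with iron in WT and MA9 macrophages (5 of 10 and 4 of 10 higher). Glycolysis, the other main source of ATP, was near 0 with iron in WT macrophages (-0.01) and at -0.07 in MA9 macrophages. It was higher in MA9 than in WT macrophages by 0.49 (17 of 19 higher), more than the nuclear members (0.18), and higher in leukemia cells than in MA9 macrophages by 1.01 (18 of 19 higher, 10 past a fold of 2), against 0.30 for the nuclear members. These medians have no test, and the lists differ in exon length, from a median of 1754.5 bases in cytosolic ribosomal proteins to 5687 bases in the biogenesis regulators.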

How the data were processed

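The 6 libraries hold RNA of sorted cells, with 1 library for each condition. The authors deposited 1 FPKM value per gene and library, scaled to exon length and the reads of the library. The submitters' processing notes name mm10, Bowtie2 2.2.5 and RSEM without their roles. From the FPKM values and GENCODE M21 exon lengths, reads were recovered (96.8% to 97.0% of values whole within 0.05 reads), giving 16085346 to 19518358 reads per library. Intervals of folds and shares are 95% and cover counting error only.

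Pairs of libraries were scaled by TMM and compared as log2(FPKM + 1) for genes with 10 reads or more in at least 1 library. Calls at a fold of 2 have no test. A fit across all genes with kind of cells and iron as terms used limma 3.58.1 (R 4.3.3) with Benjamini-Hochberg adjustment, and its residual has 2 degrees of freedom. The length trend was a lowess fit over all tested genes. Shared stretches were counted as 64-mers of the GENCODE M21 transcripts, and promoters came from RefSeq. Steps were tested on simulated data. Other scalings, pseudocounts, read minimums, length removal and left-out pairs were tried.

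The naming rule for members uses no measured value, but the set, the gene lists and the tests were chosen with earlier results of these data known. Genes named are the mitochondrial genes, nuclear members past a fold of 2, the 3 largest rises and falls of each comparison with 100 reads or more, core subunits and tissue isoforms; 1 core subunit is not reported here. Further members are named where a limma call or a pairing of isoforms required it.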

Additional observations from a re-analysis of the deposited data

Results flagged for a closer look

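The medians of the nuclear members with iron had opposite signs in the macrophages of mice without and with leukemia, -0.20 between WT/FE and WT and 0.32 between MA9/FE and MA9 on the log2(FPKM + 1) scale. The mitochondrial genes had the same signs, with medians of -0.18 and 0.49. Nuclear members moved in these opposite directions in 75 of 88 cases and mitochondrial genes in 11 of 12, against 31.4% of all genes tested in both pairs. Other genes of the nuclear members' length and level had the same signs. Their medians were -0.12 in the WT pair (1333 genes) and 0.30 in the MA9 pair (1416 genes). How many of them moved in opposite directions was not counted. The difference between the pairs was not tested, since each condition has 1 library.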

How the results depend on the processing

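Values here are medians minus that of all tested genes, in the order of iron in WT macrophages, in MA9 macrophages and in leukemia cells, then leukemia in macrophages without and with iron, then leukemia cells against macrophages without and with iron. The nuclear values were -0.18, 0.31, 0.0029, 0.18, 0.65, 0.30 and 0.038, and the mitochondrial ones -0.17, 0.48, 0.028, -0.089, 0.54, -0.034 and -0.54. The limit for a move was the counting error of the members' pooled reads, which is not the error of a median over genes. By this limit, 30 of 56 nuclear and 29 of 56 mitochondrial values did not move. No setting turned the direction of a value larger than the limit. A value under it, as the nuclear 0.0029, was not judged for direction. With the length trend removed they were -0.13, 0.17, 0.014, 0.22, 0.49, 0.27 and 0.086 for nuclear and -0.074, 0.31, 0.047, -0.019, 0.32, -0.075 and -0.42 for mitochondrial genes. Against other genes of like length and level, a setting chosen after seeing the data, nuclear values were -0.11, 0.075, 0.035, 0.12, 0.27, 0.024 and 0.014. For mitochondrial genes with under 10% shared sequence, also chosen after seeing the data, they were -0.15, 0.43, 0.10, -0.012, 0.58, -0.17 and -0.55. A minimum of 50 reads gave nuclear values of 0.29, 0.63, 0.27 and 0.022 in the second and the last 3 comparisons, and mitochondrial values of -0.18, 0.46, -0.072, 0.52, -0.088 and -0.56 in all but the third. With no minimum, nuclear values were 0.32, 0.17, 0.32 and 0.027 in iron in MA9 macrophages, leukemia in macrophages without iron and the last 2, and mitochondrial values 0.49, -0.079 and 0.55 in iron in MA9 macrophages and both leukemia comparisons of macrophages. A pseudocount of 0.1 gave nuclear values of 0.67, 0.32 and 0.050 in the last 3. Median-of-ratios scaling gave 0.049 for nuclear genes in the last comparison and 0.47, 0.53 and -0.53 for mitochondrial genes in iron in MA9 macrophages, leukemia in macrophages with iron and the last, and total scaling 0.47 in iron in MA9 macrophages.

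The number of nuclear members past a fold of 2 was 0 in the first 4 comparisons, 5 for leukemia in macrophages with iron and 2 in each of the last. At a fold of 1.5 it was 2, 7, 1, 4, 56, 10 and 8, and all tested genes were not counted at this fold. A pseudocount of 0.1 gave 1 for iron in WT macrophages, beside 396 genes higher and 332 lower of 16487 tested. It gave 1 for leukemia in macrophages without iron (all genes 1305 higher and 599 lower of 16646). With iron it gave 8 (all genes 1031 higher and 957 lower of 16265). Removal of the length trend gave 1 in each of the latter (all genes 663 higher and 117 lower without iron, 320 and 406 with iron). In the limma fit, 2 nuclear calls for MA9 against WT macrophages fell to 0 with no minimum of reads (1 of all 28841 genes called). They also fell to 0 with no trend of the prior variance (63 of all 16899 genes called). The 6 nuclear calls for leukemia cells became 13 with the length trend removed (7821 of all 16899 genes called) and 3 with no minimum (5741 of 28841). Without the leukemia cell pair, 3 nuclear members were called for MA9 against WT (895 of all 15989 genes). Without the WT pair, 5 nuclear and 2 mitochondrial members were called for leukemia cells (6986 of all 16094 genes). For iron, leaving out any pair gave 0 members, and 42 of all 15989 genes were called without the leukemia cell pair. The direction of the iron estimates depended on the pair left out. Without the MA9 macrophage pair 11 of 88 nuclear estimates were above 0 (median -0.098, all genes 7843 of 16442 above 0). Without the WT pair 77 were above 0 (median 0.14, all genes 8067 of 16094), against 56 in the main fit (median 0.032). The cause of these shifts was not tested. The labels give no replicate numbers, and the fit pairs the iron and control libraries only by the kind of cells. An iron fit with no replicate block, that is without this pairing, called 0 nuclear and 0 mitochondrial members. Depth limits single members with few reads, such as Cox6a2 in leukemia cells (8 and 7 reads).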
